A study of Mus musculus with 2 samples.

Results

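The genes described here are Hmgcs1, Idi1, Fdft1, Sqle, Lss, Cyp51, Dhcr7 and Soat1, 8 of the 31057 genes in the deposited tables. They were chosen by name, with earlier results of these data known. 7 of them encode enzymes of cholesterol synthesis and Soat1 encodes an enzyme that stores cholesterol as ester. None of the 8 takes up cholesterol, so uptake is described from a list of other pathway genes. The samples were 2 droplet libraries of whole ovaries from untreated female CD1 mice on postnatal day 2, with no other genotype or treatment. Each library pooled the ovaries of several pups. The libraries are the replicates (n = 2 per cell type), and the cells within them are not.

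Cells make cholesterol from acetyl groups through mevalonate, isoprenoid units, squalene and lanosterol, and take it up from lipoproteins through receptors at the cell surface. When sterol in the endoplasmic reticulum is low, the transcription factor SREBP-2, encoded by Srebf2, enters the nucleus and raises transcription of most of these genes. In ovarian follicles the granulosa cells surround and feed the oocyte, and sterol is among the substances that they are thought to pass to it, which is why levels in granulosa and germ cells were compared.

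The promoters of 6 of the 8 genes were in the RefSeq table used here (GRCm38.p6), each as 250 bases before and 50 after the gene start. A search was made on both strands for the sterol regulatory element TCACNCCAC, for its core CACNCCA, which lies inside it, and for CCAAT, the box bound by NF-Y. The 4 below belong to Idi1, Cyp51 and Soat1, which were called higher in granulosa than in germ cells (defined below), and to Hmgcs1, which holds the full element. Capitals mark matches to these motifs on either strand.
Hmgcs1, chr13:119690101-119690400, + strand: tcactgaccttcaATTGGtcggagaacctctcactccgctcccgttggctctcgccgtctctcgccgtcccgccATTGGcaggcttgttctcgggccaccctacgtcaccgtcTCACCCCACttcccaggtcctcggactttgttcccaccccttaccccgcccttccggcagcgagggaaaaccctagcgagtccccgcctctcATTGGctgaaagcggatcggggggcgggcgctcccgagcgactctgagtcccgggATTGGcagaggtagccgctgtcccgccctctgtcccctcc
Idi1, chr13:8885356-8885655, + strand: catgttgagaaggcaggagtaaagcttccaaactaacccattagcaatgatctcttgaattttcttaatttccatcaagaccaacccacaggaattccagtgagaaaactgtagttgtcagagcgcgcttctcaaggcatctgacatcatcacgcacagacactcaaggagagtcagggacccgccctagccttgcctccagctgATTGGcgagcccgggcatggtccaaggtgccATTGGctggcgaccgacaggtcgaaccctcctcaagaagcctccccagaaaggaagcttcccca
Cyp51, chr5:4104648-4104947, - strand: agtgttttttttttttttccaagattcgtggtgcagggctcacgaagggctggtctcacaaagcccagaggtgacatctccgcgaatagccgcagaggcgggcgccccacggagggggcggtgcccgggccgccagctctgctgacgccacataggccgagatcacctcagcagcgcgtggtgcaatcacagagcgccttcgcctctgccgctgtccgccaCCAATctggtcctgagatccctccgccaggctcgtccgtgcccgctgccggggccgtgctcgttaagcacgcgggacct
Soat1, chr1:156474279-156474578, - strand: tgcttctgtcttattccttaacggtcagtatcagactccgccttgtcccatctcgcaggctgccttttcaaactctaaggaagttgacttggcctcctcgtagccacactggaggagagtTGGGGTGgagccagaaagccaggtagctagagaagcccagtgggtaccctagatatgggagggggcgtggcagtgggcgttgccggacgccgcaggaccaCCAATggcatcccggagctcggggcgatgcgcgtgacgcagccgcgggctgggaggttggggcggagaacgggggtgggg
The full element was in the Hmgcs1 promoter, its first base 137 bases before the gene start, and in 1.24% of all 32851 promoters of this length. The core was in Hmgcs1 and Soat1 and in 18.4% of all promoters. CCAAT was in 1 promoter of each of the 6 genes and in 37.4% of all promoters, and the Hmgcs1 promoter held 4 copies of it. These 6 genes had 8 promoters in the table, and those without CCAAT were further promoters of Dhcr7. A match is a run of letters in this window and no evidence of binding.

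Gene positions are given on GRCm38. Cells were assigned by marker genes: Ddx4, Dazl and Ooep for germ cells, Foxl2, Fst and Wnt6 for granulosa, Col1a2 and Dcn for interstitial and Upk3b for mesothelial cells. Replicates 1 and 2 held 228 and 576 germ cells, 1539 and 525 granulosa cells, and 1188 and 1969 interstitial cells that passed a single gate. The labels were checked against markers outside the gates. The summed level of Zp3, Npm2, Sycp3, Figla and Nobox was 5232 and 4172 counts per 1000000 (CPM, where a count is a unique molecular identifier or UMI, that is a captured transcript) in germ cells and at most 39.95 in granulosa and interstitial cells. The summed level of 5 other granulosa markers was 1750 and 1469 in granulosa and 10.5 and 19.2 in germ cells. That of 5 other interstitial markers was 5496 and 4604 in interstitial, 115 and 156 in granulosa and 13.9 and 24.7 in germ cells. Interstitial cells also carried 934 and 427 CPM of perivascular markers, against 17.6 and 29.2 in granulosa cells, so this set may have been mixed. Only 9 and 19 cells passed the Upk3b gate alone, because most cells with Upk3b also passed the Wnt6 or Dcn gate. Values for mesothelial cells are therefore given for the 160 and 236 cells with Upk3b that did not pass the germ gate, a choice made after this overlap was seen. These cells carried 1120 and 987 CPM of 5 other mesothelial markers, but also 611 and 567 of the granulosa markers and 616 and 747 of the interstitial markers. Endothelial markers summed to 186 and 139 CPM in them. Germ cells were deep, with median UMIs per cell of 77616 and 46174, against 9978 and 10042 in granulosa and 6370 and 4748 in interstitial cells. Erythroid markers summed to 2015 CPM in interstitial and 972 in granulosa cells of replicate 2 and to 29.1 and 145 in replicate 1. Their part in the results was not tested.

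**Figure D1:**
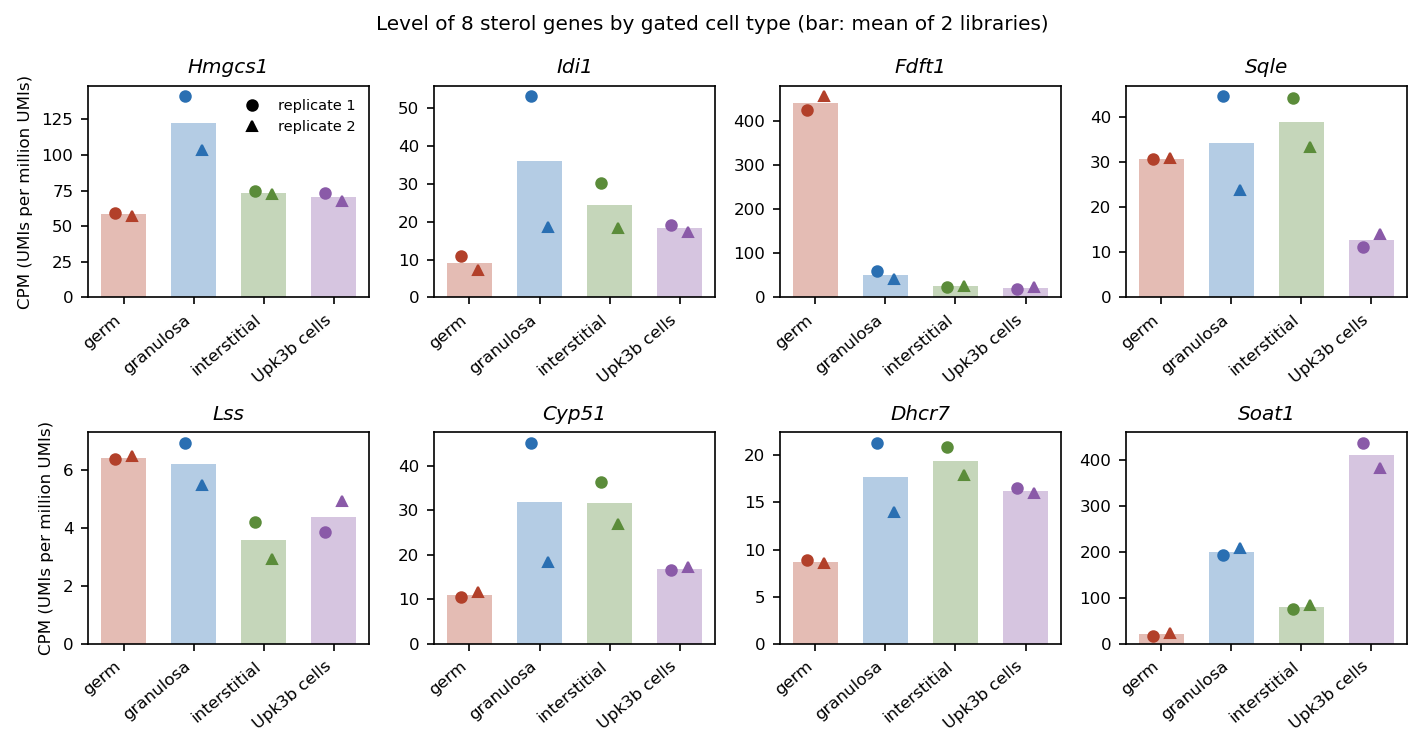
Level of the 8 genes in CPM (vertical axis, starting at 0 and scaled for each gene) in 4 sets of cells; circles are replicate 1, triangles replicate 2 and bars the mean of both libraries. Fdft1 stands at 425 and 457 in germ cells and Soat1 at 438 and 383 in cells with Upk3b.

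Between granulosa and germ cells the synthesis genes did not move as a group. Idi1, Cyp51 and Soat1 were called higher in granulosa and Fdft1 was called lower, where a call is a fold change over 2 with an adjusted p under 0.05 by edgeR's quasi-likelihood test over 14855 genes. Hmgcs1 and Dhcr7 passed the p threshold with a fold just under 2, and Sqle and Lss did not pass it. Of all genes tested, 30.5% were called higher in granulosa and 30.2% higher in germ cells, so 3 of 8 higher is close to that share and 1 of 8 lower is under it. By the p threshold alone the shares were 36.8% and 39.2%, against 5 and 1 of the 8 genes. The median log2 fold change of the 8 genes was 0.98, beside -0.04 over all genes.

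Hmgcs1 (ENSMUSG00000093930, chr13:119690379-119708260, + strand) encodes the cytosolic enzyme that joins acetoacetyl-CoA and acetyl-CoA to HMG-CoA, ahead of the step that statins block. It stood at 59.0 and 57.5 CPM in germ cells, 141 and 103 in granulosa, 74.8 and 72.6 in interstitial cells and 73.7 and 67.7 in cells with Upk3b. Both granulosa values lay above all others. The log2 fold change of granulosa against germ cells was 0.99 (95% interval 0.60 to 1.39, adjusted p = 3.29e-04, edgeR). It was 1.07 with scaling by library size alone, and there past 2-fold. Idi1 (ENSMUSG00000058258, chr13:8885501-8892451, + strand), which encodes the isomerase that interconverts the 5-carbon isoprenoid units, stood at 11.1 and 7.38 in germ, 53.3 and 18.7 in granulosa, 30.4 and 18.3 in interstitial cells and 19.3 and 17.3 in cells with Upk3b. Both germ values lay below every somatic value given here, and the granulosa libraries were far apart. Its log2 fold change of granulosa against germ cells was 1.93 (1.01 to 2.85, adjusted p = 0.0014, edgeR).

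Fdft1 encodes squalene synthase, the enzyme that commits the pathway to sterols. It stood at 425 and 457 CPM in germ cells, 60.4 and 41.5 in granulosa, 24.2 and 26.9 in interstitial cells and 19.7 and 24.0 in cells with Upk3b. The germ values lay far above all others, and the granulosa values above those of the other somatic cells. The log2 fold change of granulosa against germ cells was -3.19 (-3.65 to -2.73, adjusted p = 8.39e-08, edgeR). Cells with at least 2000 UMIs were thinned to that number, so that depth was equal, which left out 8 and 81 germ, 3 and 4 granulosa and 8 and 75 interstitial cells. Of the 220 and 495 germ cells left, 55.9% and 55.4% held an Fdft1 UMI, against 11.0% and 7.49% of granulosa and 4.32% and 4.12% of interstitial cells, and unthinned 95.2% and 83.2%, 43.0% and 35.8%, and 14.1% and 13.5%. Zp3, an oocyte gene that granulosa should lack, was then seen in 1.11% and 1.73% of granulosa cells. Fdft1 in granulosa was at 14.2% and 9.08% of its germ level, and Zp3 at 0.362% and 0.488%. The Fdft1 gene (ENSMUSG00000021273, GRCm38 chr14:63145150-63179578, - strand) overlaps Ctsb, which encodes a lysosomal protease on the opposite strand, by 774 bases at the 3' ends of both. The strand setting of the counting was not given in the sources used here, so whether reads there were told apart is not known. Ctsb itself stood at 80.3 and 101 CPM in germ cells and 205 and 191 in granulosa. Its part in the Fdft1 counts was not tested.

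Sqle (ENSMUSG00000022351, chr15:59315077-59331192, + strand) encodes squalene epoxidase, a rate-limiting step after squalene. It stood at 30.7 and 30.9 CPM in germ, 44.7 and 23.9 in granulosa, 44.2 and 33.5 in interstitial cells and 11.2 and 14.2 in cells with Upk3b. Granulosa values spanned those of germ cells, and the log2 fold change was 0.09 (-0.47 to 0.66, adjusted p = 0.754, edgeR), an interval that holds a rise or a fall of less than 2-fold. In cells with Upk3b, Sqle was called lower than in germ cells, with a log2 fold change of -1.29 (-1.97 to -0.60, adjusted p = 0.00351, edgeR). Lss (ENSMUSG00000033105, chr10:76531588-76557138, + strand), which encodes lanosterol synthase and closes the first sterol ring system, was scarce everywhere, at 6.36 and 6.47 in germ, 6.93 and 5.47 in granulosa, 4.21 and 2.91 in interstitial cells and 3.86 and 4.91 in cells with Upk3b. Its log2 fold change of granulosa against germ cells was -0.11 (-0.81 to 0.58, adjusted p = 0.759, edgeR), and that of interstitial against germ cells was -0.90 (adjusted p = 0.0287, edgeR), past the p threshold but under 2-fold.

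Cyp51 (ENSMUSG00000001467, chr5:4081145-4104746, - strand) encodes lanosterol 14-alpha-demethylase, whose product is a meiosis-activating sterol. It stood at 10.6 and 11.6 CPM in germ, 45.2 and 18.4 in granulosa, 36.4 and 27.0 in interstitial cells and 16.5 and 17.3 in cells with Upk3b. All somatic values given here lay above both germ values, though not the 6.32 CPM (1 UMI) of replicate 2 in the Upk3b gate alone. The log2 fold change of granulosa against germ cells was 1.46 (0.73 to 2.19, adjusted p = 0.00168, edgeR), and it was 0.54 in replicate 2 alone, under the 2-fold threshold. The Cyp51 gene overlaps Akap9 on the opposite strand by 166 bases, and Akap9 stood at 64.8 and 63.5 in germ cells and 82.0 and 74.9 in granulosa. Dhcr7 (ENSMUSG00000058454, chr7:143823145-143848410, + strand) encodes the last reductase before cholesterol. It stood at 8.89 and 8.55 in germ, 21.3 and 14.0 in granulosa, 20.8 and 17.9 in interstitial cells and 16.5 and 16.01 in cells with Upk3b. Its germ values were below all somatic values, with a log2 fold change of granulosa against germ cells of 0.96 (0.46 to 1.46, adjusted p = 0.00227, edgeR), which was 1.04 and past 2-fold with scaling by library size alone.

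Soat1 (ENSMUSG00000026600, chr1:156424525-156474331, - strand) encodes the acyltransferase that esterifies cholesterol for storage in lipid droplets. It stood at 18.0 and 24.6 CPM in germ cells, 193 and 209 in granulosa, 76.2 and 85.0 in interstitial cells and 438 and 383 in cells with Upk3b. The 4 sets of cells did not overlap, in the order germ, interstitial, granulosa and cells with Upk3b. The log2 fold change of granulosa against germ cells was 3.14 (2.66 to 3.63, adjusted p = 1.42e-07, edgeR). After the same thinning, 31.8% and 32.8% of granulosa cells held a Soat1 UMI, against 3.18% and 5.45% of germ cells and 55.6% and 51.3% of cells with Upk3b. The unthinned shares were 78.2% and 78.9% of granulosa cells, 64.5% and 50.5% of germ cells and 93.8% and 91.1% of cells with Upk3b. Soat1 in germ cells was at 9.35% and 11.8% of its granulosa level, and Amh, a granulosa gene that germ cells should lack, was there at 0.302% and 0.567%.

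**Figure D2:**
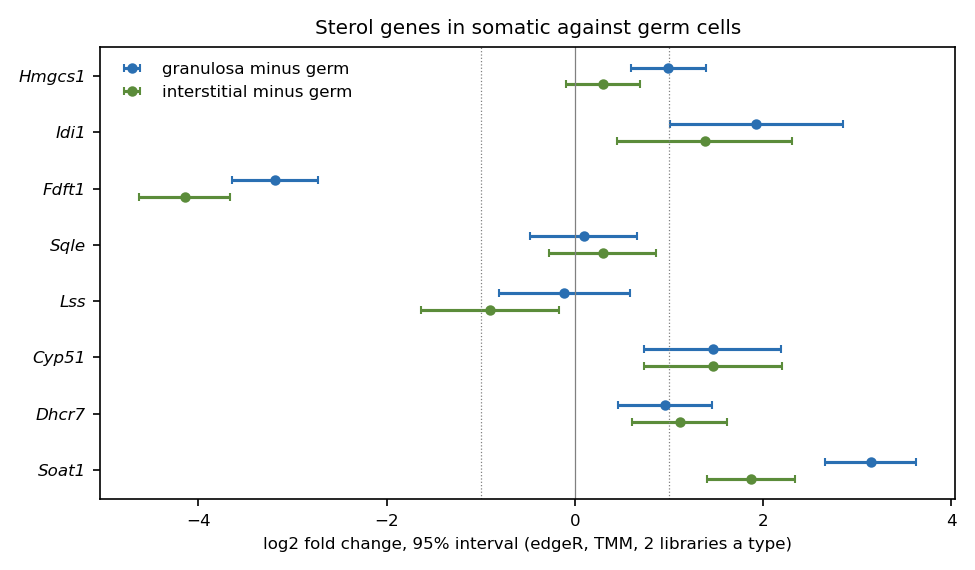
Log2 fold change (horizontal axis) of granulosa (blue) and interstitial cells (green) against germ cells for each gene; bars are 95% intervals from edgeR over 2 libraries per cell type, and dotted lines mark 2-fold. Fdft1 lies far to the left at -3.19 and -4.14, and Soat1 to the right at 3.14 and 1.87.

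The difference from germ cells was shared in part by interstitial cells. Idi1 (log2 fold change 1.38), Cyp51 (1.47), Dhcr7 (1.11) and Soat1 (1.87) were called higher in interstitial than in germ cells and Fdft1 lower (-4.14), with adjusted p from 1.61e-08 to 0.0113 by edgeR, beside 28.4% of all genes higher and 31.9% lower (34.7% and 40.3% by the p threshold alone). The Dhcr7 call was lost in thinned cells (0.77, adjusted p = 0.101, edgeR). The germ sums stand in both comparisons. Set against each other, granulosa and interstitial cells differed past both thresholds in Soat1 alone of the 8, higher in granulosa by 1.28 (0.82 to 1.73, adjusted p = 4.49e-04, edgeR), beside 15% of all genes higher in granulosa and 13.1% in interstitial cells. Hmgcs1 (0.69) and Fdft1 (0.96) passed the p threshold with folds under 2, where 20.9% of all genes passed it higher in granulosa and 19.4% higher in interstitial cells. Cyp51 differed by -0.01, with an interval from -0.72 to 0.70.

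Cells with Upk3b were led by Soat1. Against germ cells Soat1 was called higher by 4.23 and Fdft1 and Sqle lower by edgeR, beside 27.5% of all genes higher and 30.3% lower. Against granulosa cells Soat1 was called higher in cells with Upk3b, at -1.10 for granulosa minus these cells (-1.51 to -0.68, adjusted p = 0.00245, edgeR), and Fdft1 (1.16) and Sqle (1.37) were called higher in granulosa, beside 7.8% of all genes in each direction. In the 28 cells that passed the Upk3b gate alone, Soat1 held 61 UMIs in replicate 1 and 62 in replicate 2. Idi1 held 0 in both. Soat1 was again called against granulosa cells, at -1.10 (adjusted p = 0.0273, edgeR), where 1.43% of all genes were called higher in the mesothelial and 1.78% in granulosa cells, and the call was lost in thinned cells (-0.21, adjusted p = 0.845, edgeR). Against germ cells, 13.4% of all genes were called higher and 18.4% lower in these 28 cells, among them Soat1 (4.25) higher and Fdft1 (-4.27) and Sqle (-3.23, adjusted p = 0.0469, edgeR) lower. The Sqle call rests on 0 and 1 UMI in the mesothelial sums and was lost with DESeq2, with library size or relative log expression scaling and in thinned cells (adjusted p from 0.0568 to 0.204).

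All these values are shares of a cell's RNA. Counted per cell, the order of granulosa and germ cells turned for 4 genes that were past the p threshold in granulosa. Per cell, germ cells held 2.47 and 1.68 times as many Hmgcs1 UMIs as granulosa cells, 1.23 and 1.19 times as many of Idi1, 1.38 and 1.90 times as many of Cyp51 and 2.47 and 1.85 times as many of Dhcr7. For Fdft1 the ratio was 41.6 and 33.3. Soat1 was the exception, at 0.553 and 0.356 of the granulosa count per cell. These ratios have no test, and larger cells and deeper capture of their RNA cannot be told apart.

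**Figure D3:**
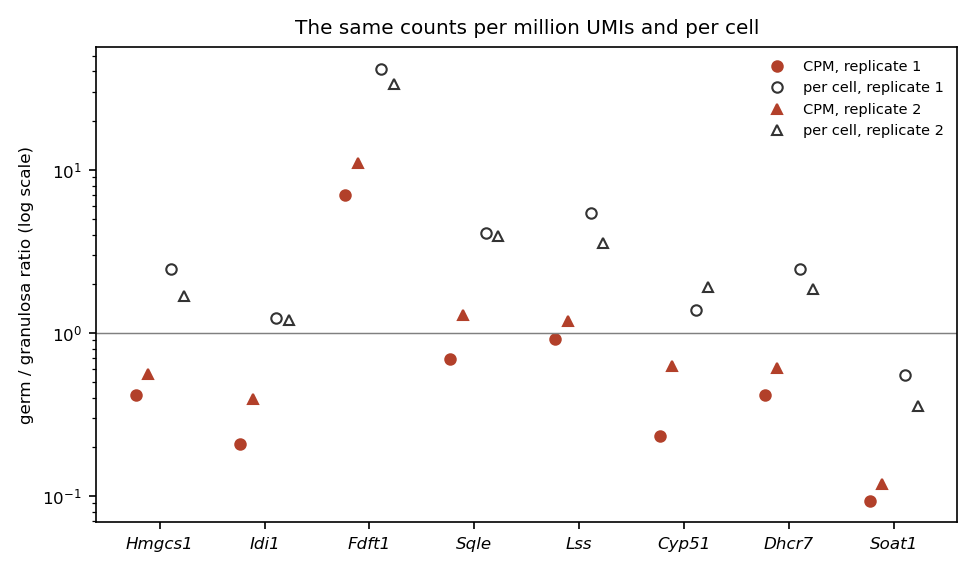
Ratio of germ to granulosa cells (vertical axis, log scale) for each gene and library, in CPM (filled red) and per cell (open black); circles are replicate 1 and triangles replicate 2. For 7 genes both values per cell lie above 1, and for Soat1 both lie below it at 0.553 and 0.356.

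The 7 synthesis genes together made up 552 and 579 CPM in germ cells, 373 and 225 in granulosa and 235 and 199 in interstitial cells. Without Fdft1 the sums were 127 and 122 in germ cells, 313 and 184 in granulosa and 211 and 172 in interstitial cells. The order of germ and granulosa cells thus rested on 1 gene. Between the 2 granulosa libraries all 7 synthesis genes stood at more in replicate 1, by a wider ratio than between the 2 germ libraries for each gene.

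Granulosa cells were split by whether they held a UMI of Amh, the hormone made by granulosa of growing follicles, and the levels on both sides are given with no test. Amh was seen in 623 of 1539 and in 92 of 525 granulosa cells, that is 40.5% and 17.5%, so the library with more synthesis RNA in granulosa also had more cells with Amh, whose part in that difference was not tested. Idi1 stood at 68.1 CPM with Amh and 40.3 without it in replicate 1, and at 40.7 and 12.5 in replicate 2. Sqle stood at 60.8 and 30.7 in replicate 1, and at 46.6 and 17.5 in replicate 2. Idi1 and Sqle had the 2 widest ratios of the 8 genes in both libraries. Lss, whose counts were few, had ratios of 0.976 and 2.32. Cyp51 (1.43 and 1.503) and Fdft1 (1.45 and 1.32) had ratios over 1 in both libraries. Hmgcs1 had ratios of 1.11 and 1.06. Soat1, at 0.823 and 1.06, and Dhcr7, at 1.23 and 0.925, lay on different sides of 1 in the 2 libraries, as Lss did. Cells with an Amh UMI were deeper, with median UMIs of 11872 against 8852 in replicate 1 and 14071 against 9347 in replicate 2, and the part of depth was not tested.

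**Figure D4:**
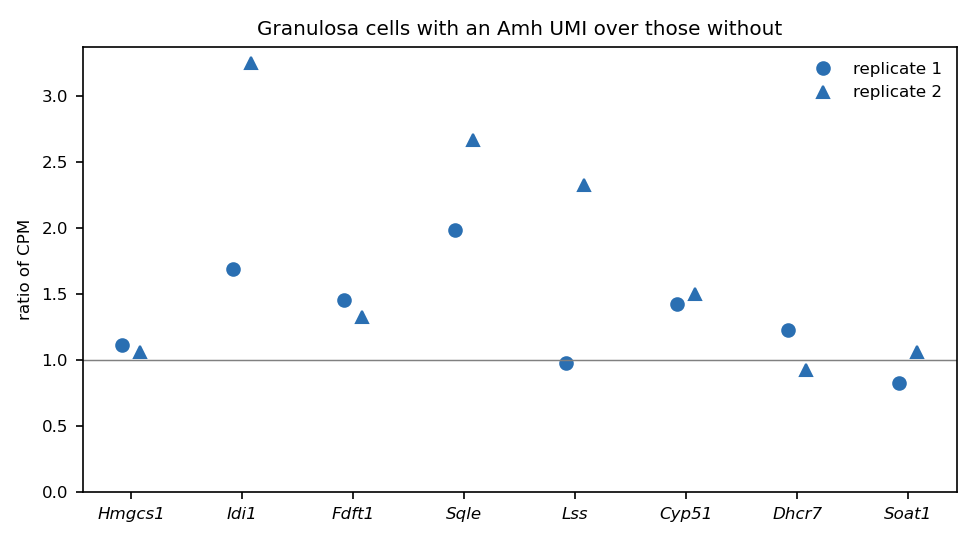
Ratio of CPM in granulosa cells with an Amh UMI to those without (vertical axis, starting at 0) for each gene; circles are replicate 1 and triangles replicate 2. Idi1 lies at 1.69 and 3.25 and Sqle at 1.98 and 2.66, while Hmgcs1 lies at 1.11 and 1.06.

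Across the 6 sums of germ, granulosa and interstitial cells, Cyp51 and Dhcr7 varied together (Pearson r of log2 levels 0.98), as did Idi1 and Cyp51 (0.94), whereas Fdft1 ran against Dhcr7 (-0.90) and Cyp51 (-0.81). Sqle and Lss did not vary together (-0.07). The points share libraries and fall into 3 cell types, so these are descriptions. The 2 sums of the 28 mesothelial cells were left out after the data were seen, because Idi1 was at 0 UMIs in both and Sqle and Lss at 0 and 1. With them Sqle and Lss had an r of 0.81, and that of Soat1 with the mean of the other 7 genes was -0.37 in place of 0.60. Over all 8 sums, the genes most like the mean of the 8, of 8975 others with at least 10 CPM, were Lama4 (0.96), Bag2 (0.96), Ppp1r37 (0.95), Nr1d2 (0.94) and Gab2 (0.94). Without the mesothelial sums these 5 had an r from 0.81 to 0.93.

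Of 36 other genes of the pathway, 34 were tested in granulosa against germ cells, of which 10 were called higher, 6 lower and 8 passed the p threshold under 2-fold. Beside 30.5% and 30.2% of all genes, higher calls were 4 of 7 in uptake and lysosomal genes, 2 of 14 in other synthesis genes, 3 of 7 in storage and carrier genes and 1 of 6 in regulators. The median log2 fold change was 1.33 for uptake and lysosomal genes and -0.44 for synthesis genes, beside -0.04 over all genes.

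Of the uptake and lysosomal genes, 4 of 7 were called higher in granulosa and 1 lower. Among the 4, only Vldlr is a receptor. Lipa, the lysosomal acid lipase that frees cholesterol from lipoprotein, stood at 1.11 and 1.30 in germ and 13.4 and 10.5 in granulosa cells, so the groups did not overlap (log2 fold change 3.21, adjusted p = 1.06e-06, edgeR). Npc2, which hands cholesterol on within the lysosome, was called at 1.33, Vldlr, a lipoprotein receptor, at 1.45, and Mylip, a ubiquitin ligase that degrades lipoprotein receptors, at 2.27. Lrp8, an apolipoprotein E receptor, was called lower at -1.65 on 67 germ and 15 granulosa UMIs. Npc2 had a mean of 5.22 UMIs per germ cell and 3.11 per granulosa cell, so its order turned when counted per cell, in both libraries. The order of Vldlr and of Mylip per cell turned in replicate 1 but not in replicate 2. That of Lipa and of Lrp8 turned in neither library. These counts per cell have no test. Lipa (4.56), Npc2 (1.91) and Mylip (1.37) were also called higher in interstitial than in germ cells, Vldlr (0.85) was not, and Lrp8 was lower (-3.10). The Lrp8 value rests on 4 interstitial UMIs over both libraries. Against interstitial cells, granulosa cells were called lower in Lipa (-1.35, adjusted p = 7.85e-04, edgeR). Past the p threshold but under 2-fold, they were lower in Npc2 (-0.59) and higher in Mylip (0.91).

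Other synthesis genes were split. Ebp, the sterol isomerase, stood at 0.741 and 1.48 in germ and 29.1 and 26.1 in granulosa cells (4.48, adjusted p = 8.35e-08, edgeR). Msmo1, the sterol 4-methyl oxidase, stood at 8.89 and 10.5 in germ and 132 and 59.9 in granulosa cells (3.23, adjusted p = 2.83e-06, edgeR). Nsdhl, which acts after Msmo1 in removing the same methyl groups, was called lower, at 51.4 and 54.6 in germ and 25.6 and 17.3 in granulosa cells (-1.37, adjusted p = 2.77e-04, edgeR). Interstitial cells shared these directions against germ cells, with Ebp called higher at 3.91, Msmo1 higher at 1.56 and Nsdhl lower at -1.41. Against interstitial cells, granulosa cells were called higher in Msmo1 (1.67) but not in Ebp (0.57). Neighbouring steps of the pathway thus had their higher level in different cells.

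Of the storage and carrier genes, 3 of 7 were called higher and 2 lower in granulosa, with a median log2 fold change of 0.15. Apoa1, the main protein of HDL, stood at 0.309 and 1.08 in germ, 73.5 and 46.7 in granulosa and 1.52 and 1.20 in interstitial cells (granulosa minus germ 6.22, adjusted p = 1.98e-07, edgeR). Apoe stood at 3.396 and 8.20 in germ, 64.4 and 161 in granulosa and 331 and 266 in interstitial cells (granulosa minus germ 4.15, adjusted p = 7.2e-06, edgeR). Abca1, which exports cholesterol to apolipoproteins, was called higher at 1.56 and Stard4, a cytosolic sterol carrier, lower at -1.71. In interstitial against germ cells, Apoe was also called higher (5.60) and Stard4 lower (-1.70). Apoa1 (0.78) and Abca1 (0.19) were not called there. Against interstitial cells, granulosa cells were called higher in Apoa1 (5.44) and Abca1 (1.37) and lower in Apoe (-1.45, adjusted p = 0.0141, edgeR). Stard4 differed by -0.01. In cells with Upk3b the mean of Apoe was 682 CPM. Counted per cell, the mean of Abca1 was 0.666 UMIs in germ and 0.462 in granulosa cells, so the order turned. It did not turn for Apoa1 (0.033 and 0.750) or Apoe (0.285 and 1.45). Of the regulators, Srebf2 stood at 9.82 and 9.33 in germ and 47.1 and 38.0 in granulosa cells (2.08, adjusted p = 2.00e-06, edgeR). Insig1, which holds SREBP-2 in the endoplasmic reticulum, was called lower in granulosa at -1.29, at 107 and 97.0 in germ and 58.5 and 28.1 in granulosa cells. In interstitial against germ cells, Srebf2 was also called higher (1.76) and Insig1 lower (-1.80). Counted per cell, the mean of Srebf2 was 0.535 UMIs in germ and 0.534 in granulosa cells. The standard deviation over the libraries was 0.229 in germ and 0.044 in granulosa cells. Its order per cell turned in replicate 1 but not in replicate 2.

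**Figure D5:**
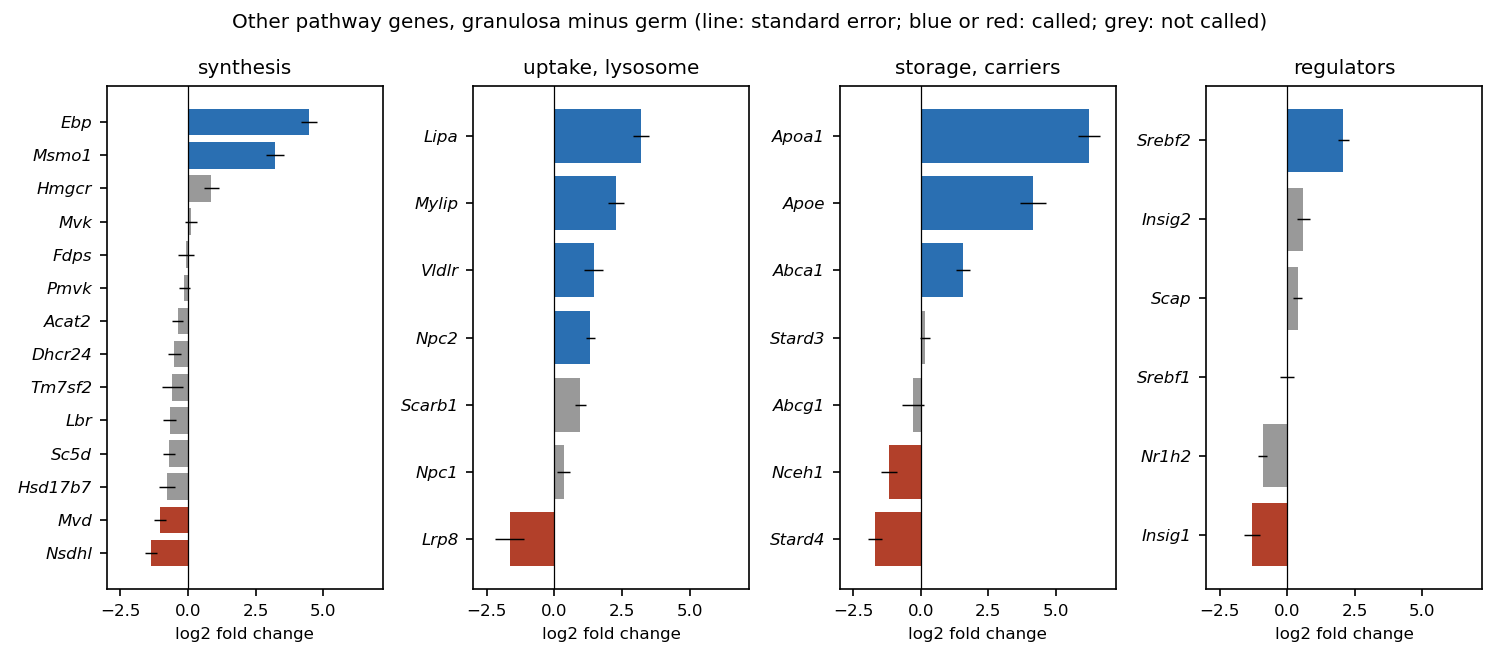
Log2 fold change of granulosa minus germ cells (horizontal axis) for 34 other pathway genes in 4 groups; lines are standard errors from edgeR, blue and red mark genes called higher and lower in granulosa, and grey those not called. Among uptake and lysosomal genes Lipa lies farthest to the right at 3.21 and Lrp8 to the left at -1.65.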

How the data were processed

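The authors deposited raw UMI counts of every called cell, made with Cell Ranger 3.0.2 on GRCm38 per the submitters' processing notes. Replicates 1 and 2 held 4094 and 4847 cells and 54471790 and 59074480 UMIs, and shared 21 barcodes. Cells with under 500 genes or over 10% mitochondrial UMIs were left out (356 and 383), as were 102 and 93 doublets (Scrublet in scanpy 1.11.5, threshold of replicate 1 for both). That threshold was 0.224. The own threshold of replicate 2 was 0.519 and called 2 doublets. A cell passed a gate with at least 2 marker UMIs that made at least 2 per 10000 of its UMIs, and cells of several gates (543 and 1074) or none (129 and 208) were left out. UMIs were summed per library and type and the 8 sums fitted together with edgeR 4.0.16 (filterByExpr, TMM, glmQLFit, glmQLFTest), with Benjamini-Hochberg adjustment over 14855 genes, after a test on simulated data. Fold changes and p-values of the 160 and 236 cells with Upk3b come from a separate fit. There these cells made the mesothelial sums, and the adjustment was over 15049 genes. Sums of the same number come from 1 library, and their deviations from the type means correlated by 0.039 to 0.243. Intervals of the fold changes are derived from the p-values. Named genes were the 8 genes, the 16 other pathway genes with the largest called change in granulosa minus germ cells (2 of them are not reported here and are left out of the list's counts), and the 5 most alike. The genes and lists were chosen with earlier results of these data known. A p-value rests on a spread estimated over all 8 sums and drawn towards that of all genes. With 2 libraries per type, it does not measure the spread of the compared types alone.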

Additional observations from a re-analysis of the deposited data

How the results depend on the processing

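The 5 comparisons were repeated with DESeq2 1.42.0, other scalings, no filter on genes or cells, other gates, doublets kept, thinned cells, no fold threshold, the library as a replicate block and each library alone. No fold change of the 8 genes turned past a threshold in the other direction, though in thinned cells not all of the 8 were fitted. In granulosa minus germ cells, the 3 genes higher in granulosa became 5 with library size scaling and 5 with no fold threshold, and 4 with 2 different markers required and in thinned cells, where Hmgcs1 passed 2-fold (1.01 and 1.29), and the pathway genes higher in germ cells went from 6 to 10 with no fold threshold. In interstitial minus germ cells, the gene higher in germ cells went from 1 to 2 with no fold threshold. In mesothelial minus germ cells (the 28 cells of the Upk3b gate alone), those higher in germ cells went from 2 to 1 with DESeq2, library size scaling, relative log expression and thinned cells, since Sqle was lost. In granulosa minus interstitial cells, the count higher in granulosa went from 1 to 2 with library size scaling, with 2 different markers required and in thinned cells, and to 3 with no fold threshold. In granulosa minus mesothelial cells, the count higher in granulosa went from 0 (4 at an unadjusted p under 0.05, edgeR) to 1 with DESeq2, the stricter gate, the gate with most marker UMIs and doublets kept, to 2 with 2 different markers and with the Upk3b gate first, and to 3 with no filter on low counts, while the count higher in mesothelial cells went from 1 to 0 with the gate with most marker UMIs and in thinned cells. With the replicate block it went from 0 to 2 (Hmgcs1 adjusted p = 0.0308, Idi1 0.023, edgeR), and the block changed no other call.

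With each library alone, where only the fold was read, the counts ranged from 2 to 5 (higher in granulosa) and 3 to 7 (pathway, higher in germ) for granulosa minus germ, 1 to 2 (higher in germ) for interstitial minus germ, 2 to 2 and 4 to 4 (higher in mesothelial and in germ) for mesothelial minus germ, 1 to 2 (higher in granulosa) for granulosa minus interstitial, and 3 to 6 and 0 to 1 (higher in granulosa and in mesothelial) for granulosa minus mesothelial. No share of all genes past 2-fold is given for a single library. These counts therefore cannot be set against a background, and no conclusion is drawn from them. In the mesothelial comparisons they rest on sums of 9 or 19 mesothelial cells. For most of the other settings above, too, no share of all genes is given beside the counts. The cause of the changes in count was not tested. Library size scaling moved the median of all genes by under 0.1, other than in mesothelial minus germ cells, from -0.80 to -0.63. Depth limits Lss, whose levels rest on 34 to 149 UMIs in each germ, granulosa or interstitial sum.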
